A study of Mus musculus with 6 samples.

Results

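The genes described here encode regulators of the interferon response in mouse hepatic stellate cells: the interferon regulatory factors Irf1, Irf3, Irf5, Irf7, Irf8 and Irf9, the transcription factor Stat2, and both chains of the type I interferon receptor, Ifnar1 and Ifnar2. A gene was represented by the probe set that names it alone, and by the brightest one over the 6 arrays where there were several. This gave values for 8 of the 9 genes, of 22180 genes with a probe set of their own, and all 8 passed the filter on signal that left 15526 genes for testing. Irf5 has no value here because its probe set also names Tnpo3, the next gene on the chromosome.

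The cells, liver pericytes that store vitamin A and make scar matrix once activated, came from young mice of 8 to 11 weeks or old mice of 6 to 9 months, with cells of 5 mice pooled in a sample. Quiescent cells had been on plastic for 12 h. Activated cells had been cultured for over 20 days and received the solvent dimethyl sulfoxide (vehicle) or C-82 at 10 µM, the active form of PRI-724, which blocks the binding of beta-catenin to its coactivator CBP. The labels call the treated samples PRI-724 and name no genotype, strain, sex or exposure time. Each of the 6 combinations of age and state had 1 array, and whether the 3 samples of an age came from 1 isolation of cells is not given, so age and isolation cannot be told apart.

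Values are log2 signals, on which 1 unit is a 2-fold difference. A signal also depends on the probes, so levels are compared between arrays for a gene and not between genes. The young PRI-724 array stood apart: its middle 50% of tested genes spanned 1.71 log2 units, against 2.11 to 2.43 on the other 5. The 10 stellate cell markers on the list all passed the signal filter. Markers of other liver cells had signal too, with list medians over the arrays of 5.65 to 9.42 for macrophages, 5.81 to 10.17 for sinusoidal endothelium and 4.65 to 9.35 for hepatocytes. In such bulk samples, fewer cells of a type and less RNA per cell cannot be told apart.

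Type I interferons bind a receptor made of IFNAR1 and IFNAR2. The receptor's kinases phosphorylate STAT2, which acts with IRF9 in ISGF3, a complex that binds interferon-stimulated response elements (ISREs) and switches on interferon-stimulated genes. IRF3 is present before any stimulus and is activated by sensors of foreign nucleic acid, whereas Irf7, Irf9, Stat2 and Irf1 are themselves raised by interferon. Irf8 is best known from macrophages and dendritic cells. Irf3, Ifnar1 and Ifnar2 are taken here as the genes that are not interferon-induced, a grouping made from general knowledge.

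The sequence before the start of transcription shows where the 2 classical interferon motifs lie in these genes. The windows reach from 250 bases before to 50 bases after the start in RefSeq's annotation of GRCm38.p6, which held all 9 genes in 12 windows. Both strands were searched for the ISRE core, GAAA and GAAA with any 2 bases between them, and for the gamma-activated site (GAS) TTCNNNGAA, the element of STAT dimers. The ISRE core was present for 1 of the 9 genes and for 3.99% of all 27025 genes in the table. The GAS letters were present for 4 of the 9 and for 9.55% of all genes. The 5 stretches below are those with a match lying wholly before the start, and Irf7, which had the largest age difference. Capitals mark the matches, and each line reads 5′ to 3′ along the gene's strand.
Stat2, chr10:128270248-128270347, plus strand: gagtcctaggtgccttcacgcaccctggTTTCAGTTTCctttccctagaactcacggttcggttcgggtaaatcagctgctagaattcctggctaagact
Irf1, chr11:53769874-53769973, plus strand: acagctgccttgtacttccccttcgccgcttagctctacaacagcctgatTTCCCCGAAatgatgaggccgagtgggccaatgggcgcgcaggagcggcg
Irf8, chr8:120736148-120736247, plus strand: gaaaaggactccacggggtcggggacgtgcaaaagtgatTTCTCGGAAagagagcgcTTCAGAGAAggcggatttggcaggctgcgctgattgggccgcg
Ifnar2, chr16:91372533-91372632, plus strand: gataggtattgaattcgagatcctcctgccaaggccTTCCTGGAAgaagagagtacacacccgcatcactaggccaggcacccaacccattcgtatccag
Irf7, chr7:141266425-141266524, minus strand: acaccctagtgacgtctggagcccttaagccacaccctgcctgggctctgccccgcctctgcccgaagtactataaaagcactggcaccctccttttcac

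The ISRE core of Stat2 lies on the strand opposite to the gene, 222 to 213 bases before the start. The GAS letters of Irf1 lie 90 to 82 bases before the start, those of Ifnar2 214 to 206 bases before it, and Irf8 has a pair of them within 30 bases. Ifnar1 has one that straddles its start. The windows of Irf3, Irf5, Irf7 and Irf9 hold neither motif, which says only that these letters are not in these windows. Among genes fixed as interferon-stimulated, the ISRE core was present for 9 of 17 with a window.

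**Figure D1:**
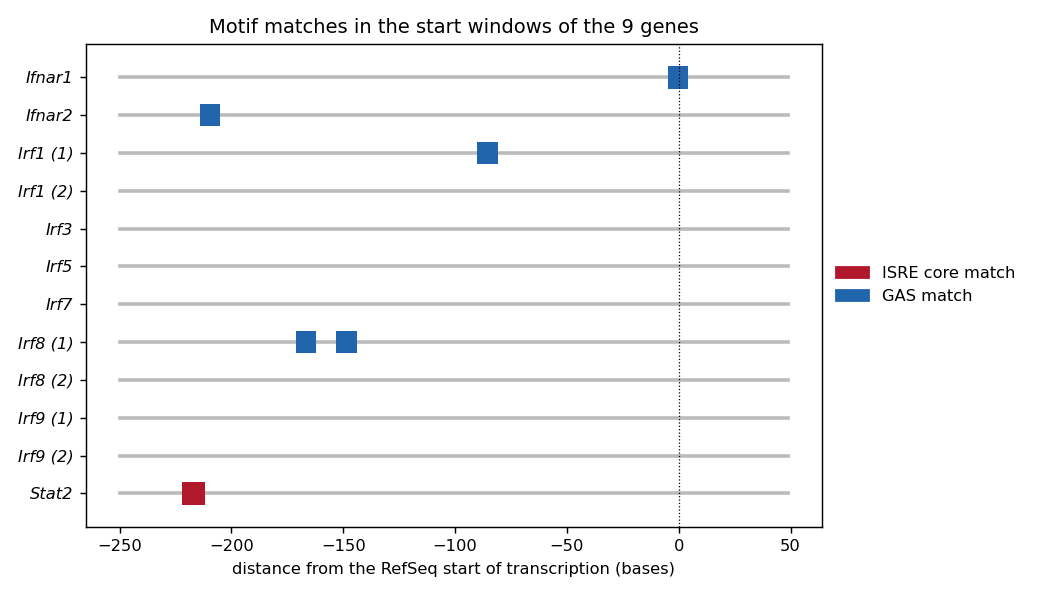
Positions of the ISRE core (red) and GAS (blue) matches in the RefSeq windows of the 9 genes, in bases from the start of transcription; numbers in brackets tell the windows of a gene apart. Stat2 carries the ISRE core, and Irf1, Irf8, Ifnar1 and Ifnar2 carry GAS letters.

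The main question was how old cells differed from young cells in each state, and whether regulators that interferon does not induce differed too. Irf7, Irf9 and Stat2 were lower in old cells, by 2.48, 1.43 and 1.71 log2 units on average over the 3 states. Irf1, the remaining interferon-induced gene, was also lower in each state but did not pass the test. None of the 3 genes that are not interferon-induced passed it, and they went different ways: Ifnar2 was lower in each old sample, Ifnar1 was not, and Irf3 was higher in old cells in 2 of the 3 states. Thus 3 of the 8 genes were called lower and 0 higher (limma, adjusted p below 0.05), against 0.251% of all 15526 genes called lower and 0.264% called higher. Among all genes 80 were called in either direction (0.515%), while 5 of the 8 genes and 10.4% of all genes had an unadjusted p below 0.05. The error is the disagreement of the 3 old minus young differences, moderated by the other genes, so the p-values measure the spread between these samples, which may be technical.

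Irf7, the factor that amplifies the type I interferon response, had the largest difference of the 8. Its log2 signal was 11.14 in quiescent, 10.29 in vehicle and 8.70 in PRI-724 samples of young mice, and 8.58, 7.30 and 6.82 in the same samples of old mice. The lowest young value lay just above the highest old value, so the ages did not overlap although the states differed. Young cells had 5.93 times the signal of old cells when quiescent, 7.98 times with vehicle and 3.69 times with PRI-724. The mean difference was -2.48 ± 0.25 (SE, n = 3 pairs) with a 95% interval of -3.05 to -1.92 and an adjusted p of 0.00512. In the order of all 15526 genes by mean age difference, Irf7 stood 12th from the low end. In quiescent, vehicle and PRI-724 samples it stood 57th, 14th and 15th. It kept its call after cyclic loess and quantile normalization, and lost it without the pairing by state (adjusted p = 0.992) and with either PRI-724 array left out (-2.78, adjusted p = 0.134 without the young one and 0.136 without the old one). Without either of those arrays limma called 0 of all 15526 genes, while 1644 and 1642 had an unadjusted p below 0.05, so each age call below, list counts included, was lost there too.

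Stat2 and Irf9 encode parts of ISGF3. The log2 signal of Stat2 was 10.28 in quiescent, 9.33 in vehicle and 8.10 in PRI-724 samples of young mice, against 7.74, 7.63 and 7.22 in old mice. The young values spanned more than 2 units, whereas the old values lay close together, so the gap was widest in quiescent cells. The difference was -2.55 in quiescent, -1.70 in vehicle and -0.88 in PRI-724 samples, and its mean was -1.71 ± 0.30 (SE, n = 3 pairs; 95% interval -2.39 to -1.03; limma adjusted p = 0.0499). The adjusted p of Stat2 lay at the threshold, and it ranged from 0.00221 to 0.992 over 13 alternative settings, of which 4 kept the call.

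Irf9 had a log2 signal of 9.35, 8.51 and 8.21 in young quiescent, vehicle and PRI-724 samples and of 7.62, 7.18 and 6.97 in the old ones. Its difference was the most even of the 3 called genes, at -1.73, -1.33 and -1.24, and each young value lay above each old one. The mean was -1.43 ± 0.23 (SE, n = 3 pairs; 95% interval -1.95 to -0.92; limma adjusted p = 0.0318), or 2.70-fold higher signal in young cells. The call was kept under 6 of 13 alternatives. It was lost, with a difference as large or larger, after cyclic loess (-1.59, adjusted p = 0.0557) and quantile normalization (-1.54, adjusted p = 0.0545). Left-out arrays also ended it: either quiescent array (-1.29, adjusted p = 0.0711 without the young and 0.0710 without the old one) and either PRI-724 array (-1.53, 0.194 for both). Stat2 lost its call without the young quiescent array (-1.29, adjusted p = 0.0655) and without either PRI-724 array (-2.12, adjusted p = 0.194 for both).

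Irf1, a factor best known as a target of interferon gamma, had a log2 signal of 8.43, 7.29 and 6.67 in the young samples and 6.74, 6.71 and 5.99 in the old ones. The young quiescent sample was the high one, and the young PRI-724 value lay below the old quiescent and vehicle values, so the ages overlapped. The mean difference was -0.98 ± 0.27 (SE, n = 3 pairs) with a 95% interval of -1.58 to -0.38 before adjustment and an adjusted p of 0.201.

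**Figure D2:**
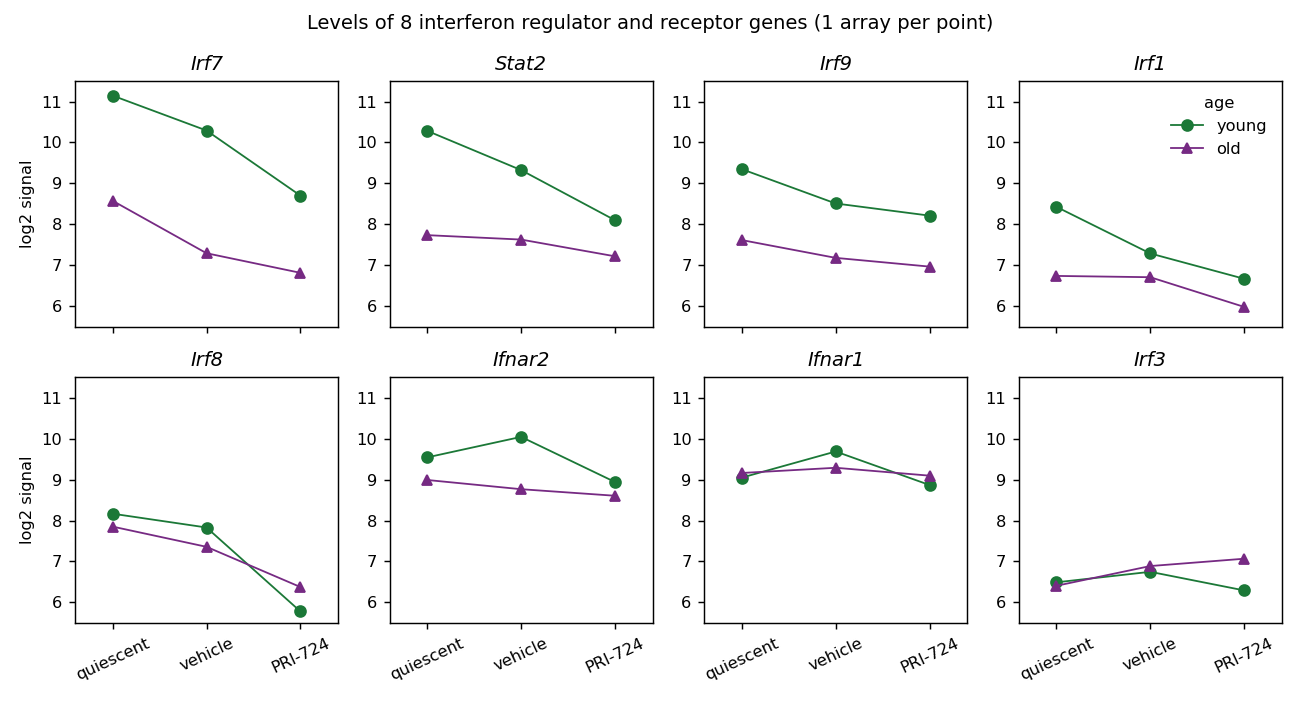
Log2 signal (vertical axis) of the 8 genes in quiescent, vehicle and PRI-724 samples, with circles for young and triangles for old mice and 1 array per point; lines join the samples of an age and are no time course. In the panels of Irf7, Stat2 and Irf9 the lowest young point (8.70, 8.10 and 8.21) lies above the highest old point (8.58, 7.74 and 7.62), and in the panels of Irf8, Ifnar1 and Irf3 the lines cross.

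Among the genes that are not interferon-induced, Irf3, which starts the interferon response when sensors detect foreign nucleic acid, had a log2 signal of 6.49, 6.75 and 6.29 in young and 6.41, 6.89 and 7.07 in old samples. The ages overlapped, and the old PRI-724 sample was the highest of the 6. The differences were -0.08, 0.14 and 0.77, with a mean of 0.28 ± 0.24 (SE, n = 3 pairs) and a 95% interval of -0.26 to 0.82 (limma adjusted p = 0.758).

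Ifnar1, the receptor chain bound by the kinase TYK2, had a log2 signal of 9.05, 9.68 and 8.87 in young and 9.16, 9.29 and 9.09 in old samples. The ages overlapped, and the young vehicle sample was the high one. Its differences of 0.11, -0.40 and 0.23 gave a mean of -0.02 ± 0.22 (SE, n = 3 pairs; 95% interval -0.50 to 0.46; limma adjusted p = 0.989). The sign of the PRI-724 difference depended on the scaling, at -0.13 after cyclic loess and after quantile normalization.

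Ifnar2, the receptor chain bound by the kinase JAK1, had a log2 signal of 9.54, 10.04 and 8.94 in young and 8.99, 8.76 and 8.60 in old samples. The old value was the lower one in each state, and the young PRI-724 value lay just under the old quiescent value, so the ages overlapped by a small margin. The differences were -0.55, -1.28 and -0.34, with a mean of -0.72 ± 0.24 (SE, n = 3 pairs; 95% interval -1.25 to -0.19 before adjustment; limma adjusted p = 0.303). The direction was kept under 13 of 13 alternatives, none of which called it. The size rested in part on the vehicle pair: it was -0.44 without either vehicle array and -0.91 without either PRI-724 array. Ifnar2, Il10rb, Ifnar1 and Ifngr2 follow each other on chromosome 16. Il10rb, a chain of the receptors for interleukin 10 and interferon lambda, stood at 0.10 ± 0.21, and Ifngr2, a chain of the interferon gamma receptor, at -0.14 ± 0.24, both with n = 3 pairs.

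Irf8, which guides the development of macrophages and dendritic cells, had a log2 signal of 8.17, 7.83 and 5.78 in young and 7.85, 7.36 and 6.38 in old samples. The PRI-724 samples were the low ones at both ages, and the ages overlapped. The age differences were -0.31, -0.47 and 0.60, with a mean of -0.06 ± 0.27 (SE, n = 3 pairs; 95% interval -0.66 to 0.53; limma adjusted p = 0.964).

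**Figure D3:**
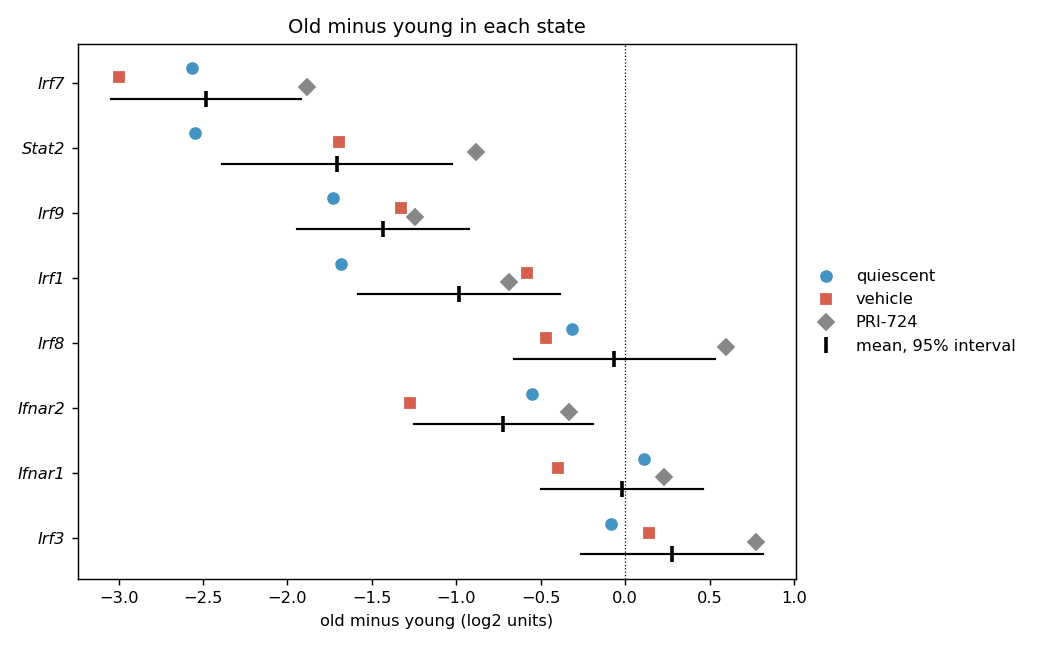
Old minus young difference in log2 units for each gene in quiescent (circles), vehicle (squares) and PRI-724 samples (diamonds), with the mean and its 95% interval from limma in black below. Irf7, Stat2, Irf9, Irf1 and Ifnar2 have 3 points below 0; Ifnar1, Irf3 and Irf8 have points on both sides, and the PRI-724 point of Ifnar1 turns negative under other scalings.

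Counted without a test, 5 of the 8 genes were lower in old cells in all 3 states, as were 11.3% of all genes tested, and these 5 kept that direction after cyclic loess and quantile normalization. At least 2-fold lower in all 3 states were 2 of the 8, Irf7 and Irf9, and 0.213% of all genes. The lowest young value exceeded the highest old value for 3 of the 8 and for 3.53% of all genes. The median mean difference was -0.85 over the 8 genes, -1.57 over the 4 interferon-induced ones and -0.02 over the 3 that are not, beside 0.04 over all genes. The value of -0.02 is that of Ifnar1, between Ifnar2 at -0.72 and Irf3 at 0.28. The median of all genes was 0.03 in quiescent, 0.01 in vehicle and 0.17 in PRI-724 samples, so in the last the differences lie against a general upward shift.

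Interferon-stimulated genes, the targets of ISGF3, were called in part. Of 20 tested, 9 were lower in old cells and 0 higher, with a median of -1.61, beside 0.251% of all genes called lower. All but Ifit2, Ifit3 and Oasl1, 17 of the 20, were lower in each of the 3 states, as were 11.3% of all genes. The count of 9 was 2 after cyclic loess, 4 after quantile normalization and 0 without the pairing by state (medians -1.76, -1.62 and -1.61). It was 14 without either vehicle array and 0 without either PRI-724 array (medians -1.61 and -2.12). The 80 calls over all genes became 7, 12 and 0 after cyclic loess, after quantile normalization and without pairing. They became 343 without the young vehicle array, 337 without the old one and 0 without either PRI-724 array. Ifit1, which binds foreign RNA, stood lowest at -3.42 ± 0.39 (SE, n = 3 pairs; limma adjusted p = 0.00559). The antiviral GTPase gene Mx2 stood at -2.84 ± 0.48, the antiviral enzyme gene Rsad2 at -2.64 ± 0.36 and Oasl2, of the oligoadenylate synthetase family, at -2.44 ± 0.29, with adjusted p of 0.0409, 0.0172 and 0.00829. The old values of Mx2, 4.58, 3.82 and 3.83, all lay under the signal filter of 4.70. It passed that filter only through its young values of 9.20, 6.49 and 5.07, so its call is a description only. The 9 above and the 13 below include it. The 8 regulators and the genes of the 5 interferon pathway lists made up 13 of the 39 genes called lower in old cells. Those tested were the 8 regulators, 20 interferon-stimulated genes and 39 genes of the other 4 lists, of 15526 genes in all. The lists were chosen with earlier results of these data known, so this count is a description only.

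The other parts of the pathway were mostly not called. Of 6 other IRF and STAT genes tested, 0 were called lower and 0 higher, with a median of -0.33. Stat3, the main factor of interleukin 6 signalling, stood at -0.76 ± 0.21 (SE, n = 3 pairs; limma adjusted p = 0.207) and Irf4, a lymphocyte factor, at -0.55 ± 0.26 (0.502). Of 13 other receptor chains, kinases and inhibitors, 1 was lower and 0 higher, with a median of -0.08. The called gene was Usp18, an interferon-induced inhibitor that binds IFNAR2, at -2.16 ± 0.32 (adjusted p = 0.0237).

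Of 13 activators of IRF3 and IRF7, 0 were called in either direction, with a median of -0.11. The largest mean differences were those of Tlr3, a receptor for double-stranded RNA, at -0.96 ± 0.43 (limma adjusted p = 0.488), and Myd88, an adaptor of Toll-like receptors, at -0.81 ± 0.27 (0.305). Of 18 interferon ligand genes on the array with a probe set of their own, 7 passed the signal filter and 11 did not, Ifnb1 and Ifng among the latter with mean signals of 3.37 and 4.61. Of the 7, 0 were called, and their median was -0.22. Ifna14 stood at -0.37 ± 0.26 and Ifna1 at -0.34 ± 0.24, both uncertain because Ifna genes are near-identical copies. An unadjusted p below 0.05 was found for 5 of the 39 genes of these 4 lists (Stat3, Jak2, Usp18, Mavs and Myd88), a share near the 10.4% of all genes.

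**Figure D4:**
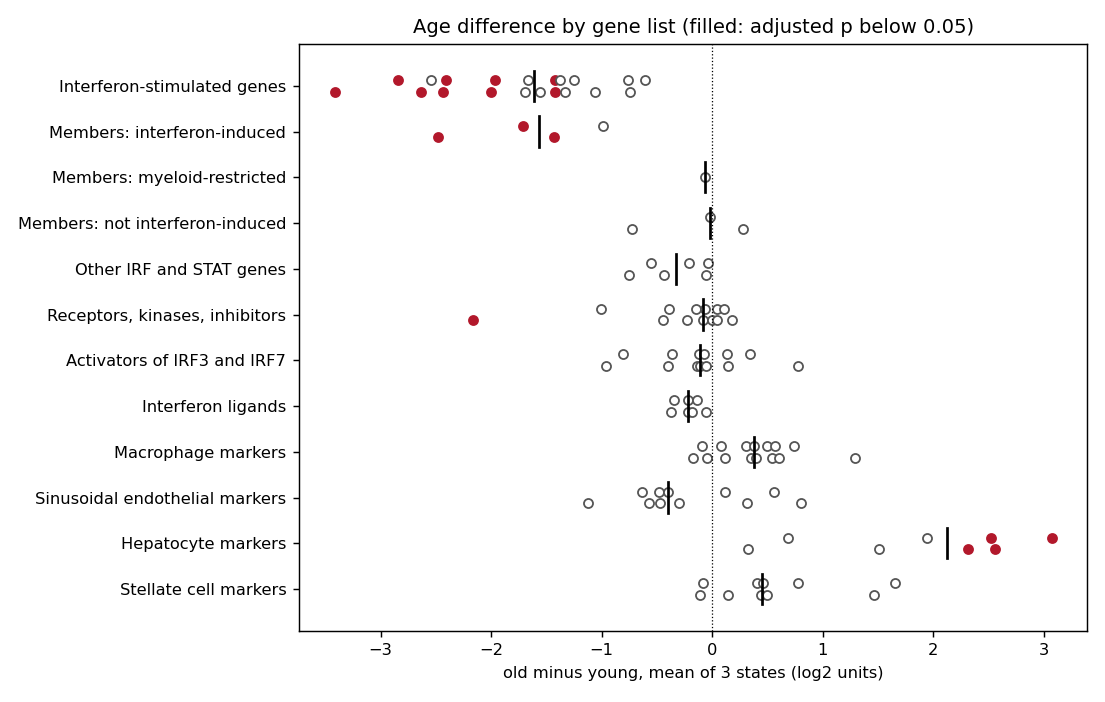
Mean old minus young difference in log2 units for each tested gene (points; filled where the limma adjusted p is below 0.05) by list, with vertical bars at list medians. The interferon-stimulated genes and the interferon-induced regulators have medians of -1.61 and -1.57, the medians of the other 6 interferon-related rows lie between -0.33 and -0.02, and hepatocyte markers have a median of 2.13.

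Markers of other cells moved with age in part. Of 8 hepatocyte markers, 4 were higher in old cells and 0 lower (0 higher after cyclic loess or quantile normalization), and their median level was 6.30, 4.65 and 6.12 in young and 9.35, 7.18 and 7.16 in old quiescent, vehicle and PRI-724 samples. Of 15 macrophage markers and 11 sinusoidal endothelial markers 0 were called, with medians of 0.38 and -0.40. By state the medians were 0.67, -0.13 and 0.34 for macrophages and -1.33, -0.40 and 0.79 for sinusoidal endothelium. Of 7 dendritic cell markers 1 was lower, Bst2, which is also on the interferon-stimulated list, and Siglech, the plasmacytoid marker, stood at -0.52 ± 0.22 (SE, n = 3 pairs; limma adjusted p = 0.446). Lower in old cells in all 3 states were 4 of the 7 dendritic cell markers (median -0.21), 4 of 5 lymphocyte markers (median -0.40) and 11.3% of all genes. Of 9 lymphocyte markers with a probe set of their own, only these 5 passed the signal filter of 4.70. Their medians over the arrays, 4.95 to 5.62, lay near that filter, and 0 were called. Of 10 stellate cell markers 0 were called, and the median was 0.45, beside 0.04 over all genes. The part of these cells in the age differences was not tested.

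The second comparison asked what culture activation did to these genes. Its errors, and those of the PRI-724 comparison, come from the fit to all 6 arrays, moderated by the other genes, not from the 2 pairs alone. Of the 8 genes, 0 were called (limma), against 5.87% of all genes called in either direction and 1.26% called lower, and 2 had an unadjusted p below 0.05, as had 22.4% of all genes. These were Irf7, with differences of -0.85 (young pair) and -1.28 (old pair; mean -1.07 ± 0.31, SE, n = 2 pairs; adjusted p = 0.0757), and Irf9, at -0.84 and -0.43 (-0.64 ± 0.28; adjusted p = 0.217). After cyclic loess Irf7 passed the threshold at -1.25 (adjusted p = 0.0420). Stat2 and Irf1 differed by -0.96 and -1.14 in the young pair and by -0.11 and -0.03 in the old pair, so that the young quiescent sample stood alone at the top for both. Irf3 stood at 0.37 ± 0.30 and Ifnar1 at 0.38 ± 0.26, with positive differences in both pairs.

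In activated cells given PRI-724, compared with vehicle, Irf8 was the only regulator called, though the mean differences of the others were negative too. Its signal went from 7.83 to 5.78 in young and from 7.36 to 6.38 in old cells, a mean difference of -1.51 ± 0.33 (SE, n = 2 pairs; limma adjusted p = 0.0471). This was 1 of the 8 genes called, with 0 higher, against 1.93% of all genes called lower and 2.2% in either direction. The call lies close to the threshold, and it was lost with the mean of both Irf8 probe sets (-0.84, adjusted p = 0.145). It was also lost without the young PRI-724 array (-1.02) and without the young vehicle array (-1.21), fits that leave 1 array in a state. Without the young PRI-724 array the calls of all other genes were lost too, so that fit says little about Irf8 itself. Cyclic loess (-1.26, adjusted p = 0.0883), quantile normalization (-1.39, 0.139) and leaving out the lowest 50% of genes (-1.51, 0.0534) ended the call too. The dimmer Irf8 probe set, at 4.96 to 5.39 on the 6 arrays, moved little. In the same comparison 13 of 15 macrophage markers and 11 of 11 sinusoidal endothelial markers were called lower, with medians of -2.47 and -3.30. Without the young PRI-724 array these calls were lost with those of all genes, and the medians were -2.58 and -2.17. The macrophage median went from 8.94 and 8.73 with vehicle to 5.65 and 5.91 with PRI-724. The part of those cells in the fall of Irf8 was not tested.

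The other regulators did not pass the test after PRI-724. The difference of Irf7 was -1.59 for young and -0.48 for old cells (mean -1.03 ± 0.31, SE, n = 2 pairs; limma adjusted p = 0.141), and it passed with the old vehicle array left out (-1.42, adjusted p = 0.0396). That of Stat2 was -1.22 and -0.41 (-0.82 ± 0.37; 0.334). Ifnar2 stood at -1.10 and -0.16, and Ifnar1 at -0.82 and -0.19. For these 4 genes the young pair, which holds the array with the narrow signal range, had the larger difference. Irf1 was closer between ages, at -0.62 and -0.72, as was Irf9 at -0.30 and -0.21, and Irf3 stood at -0.45 and 0.18. The mean difference of Irf3, -0.14 ± 0.30, turned positive after cyclic loess (0.07) and quantile normalization (0.08), and that of Irf9, -0.26 ± 0.28, after quantile normalization (0.04). Both this comparison and the activation comparison use the vehicle arrays, so their values are not independent.

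**Figure D5:**
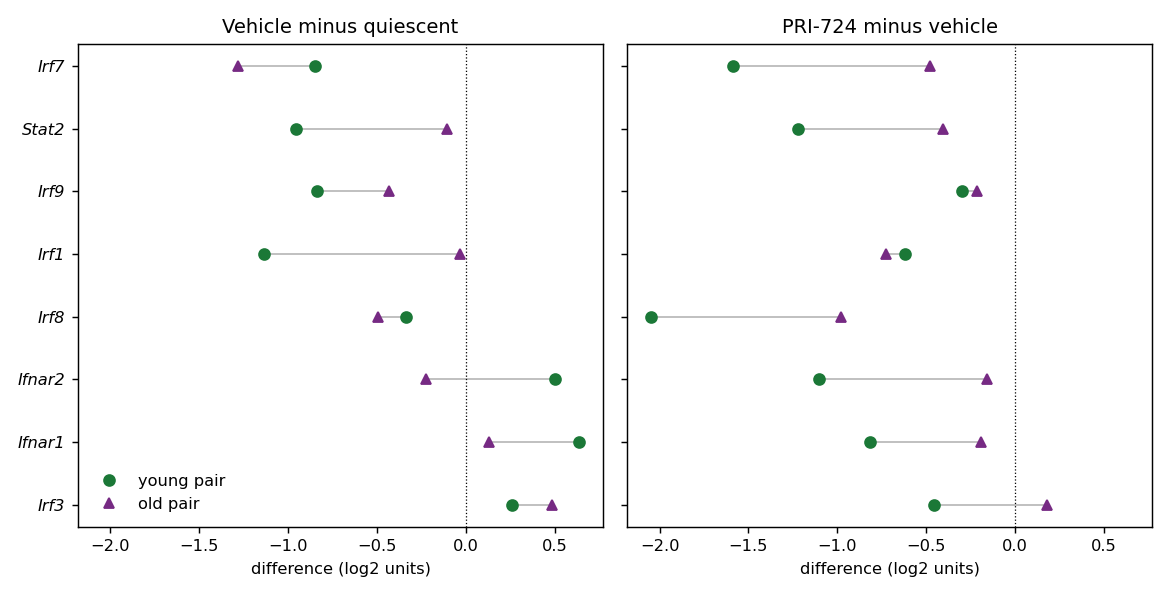
Differences in log2 units between states for each gene, with vehicle minus quiescent on the left and PRI-724 minus vehicle on the right; circles are the young and triangles the old pair, and grey lines join them. Irf8 has both points well below 0 after PRI-724 (-2.05 and -0.98), and Ifnar2 on the left and Irf3 on the right have points on both sides of 0.

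Genes with the most similar profile were sought for the 6 regulators whose values spanned more than 1 log2 unit, by the root-mean-square distance between gene-centred log2 values over the 6 arrays. Closest to Irf7 were Oas1g (0.20 log2 units), Rtp4 (0.26) and Zbp1 (0.32), and closest to Stat2 were Oas1b (0.10), BC023105 (0.20) and Parp12 (0.20). Irf9 lay nearest to Clec2d (0.18), Casp4 (0.19) and Dhx58 (0.20), and Irf1 to Samd9l (0.16), Tnip1 (0.17) and Tapbp (0.19). The nearest genes of Irf8 were Plpp3, Stk10 and Lgmn (0.15 to 0.16), and those of Ifnar2 were Zc3h12a, Mir27a and Marcksl1 (0.15 to 0.17). Among the 8 genes themselves the closest pairs were Irf3 with Ifnar1 (0.29), both with little change, and Irf1 with Irf9 (0.33) and Irf9 with Stat2 (0.37). These distances describe 6 arrays that differ in age, state and signal range together.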

How the data were processed

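Total RNA was labelled with the GeneChip WT PLUS kit and hybridized to Affymetrix arrays, per the labels' protocols. The deposited values are log2 signals that the authors made with Affymetrix Expression Console and RMA, per the submitters' processing notes, which name no version. Of 41345 probe sets, 23521 had a single gene symbol in the platform annotation, 1814 had several and 16010 had none. The genome build behind the array annotation is not stated in these sources. For each gene the brightest of its own probe sets was kept, and the 30% of genes with the lowest mean signal (under 4.70) were left out.

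A limma model (version 3.58.1, R 4.3.3) was fitted to all 15526 genes, with terms for age and state and an intensity trend (2 residual and 7.76 prior degrees of freedom), and adjusted by the Benjamini-Hochberg method. Differences within 1 state have no replicate and no test, and the interaction of age and state cannot be tested. The number of arrays limits the precision. Named genes were the members, called genes of each pathway list (at most 4) or otherwise the pair with the largest mean difference, and the 3 nearest profiles. Genes singled out beyond this rule, and the printed sequence stretches, were chosen after their values were seen. The members and lists were chosen with earlier results of these data known. Alternatives were other filters, the mean of all probe sets, no trend, no pairing term, cyclic loess, quantile normalization, only the arrays of the states compared, and each array left out. Figures used Python 3.11.15 with matplotlib 3.10.9.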

Additional observations from a re-analysis of the deposited data

Results flagged for a closer look

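Effects of opposite sign in different groups were found in 8 of 40 pairs of effects compared, in 4 genes. Each effect is a single array against another, so these differences were not tested. For Irf3, PRI-724 minus vehicle was -0.45 in young and 0.18 in old cells, a gap of 0.63 log2 units. Old minus young for Irf3 was -0.08 in quiescent cells, against 0.14 with vehicle (a gap of 0.23) and 0.77 with PRI-724 (0.86). The value of 0.77 was 0.42 after cyclic loess and 0.47 after quantile normalization.

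For Irf8, old minus young was 0.60 with PRI-724, against -0.31 in quiescent cells (a gap of 0.91) and -0.47 with vehicle (1.07). The PRI-724 value was smaller under other settings, at 0.13 after cyclic loess and 0.15 with the mean of both Irf8 probe sets. For Ifnar1 it was -0.40 with vehicle, against 0.11 in quiescent cells (a gap of -0.51, vehicle minus quiescent) and 0.23 with PRI-724 (0.63), the last of which was -0.13 after cyclic loess and after quantile normalization. For Ifnar2, vehicle minus quiescent was 0.50 in young and -0.22 in old cells, a gap of -0.73. Of the 8 gaps, 5 involve the young PRI-724 array, whose signal range was narrow.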

How the results depend on the processing

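The count of regulators called lower in old cells, 3, was 1 after cyclic loess and after quantile normalization (Irf7), 0 without the pairing by state, and 0 to 3 with an array left out. The count after PRI-724, 1, was 0 with the lowest 50% of genes left out, the mean of all probe sets, no pairing term, cyclic loess or quantile normalization, and 0 to 2 with an array left out. The count after activation, 0, was 1 after cyclic loess and 0 with any array left out.

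Signs turned for Ifnar2 after activation (-0.0401 after cyclic loess), Irf3 after PRI-724 (0.0666 after cyclic loess, 0.0847 after quantile normalization) and Irf9 after PRI-724 (0.041 after quantile normalization). With an array left out, old minus young ranged from -0.39 to 0.14 for Irf8 and from -0.14 to 0.17 for Ifnar1, activation from -1.16 to 0.10 for Stat2 and -0.28 to 0.55 for Ifnar2, and PRI-724 from -0.51 to 0.24 for Irf3. Irf7, Stat2, Irf9, Irf1 and Ifnar2 kept their direction with age in 13 of 13 alternatives.

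Over all genes the 80 age calls became 7 after cyclic loess, 12 after quantile normalization and 0 without pairing (581 at an unadjusted p below 0.05), and 0 to 343 with an array left out. The 911 activation calls became 482, 331 and 114 (318 to 1230) and 481 with the 4 arrays alone. The 341 PRI-724 calls became 103, 84 and 91 (0 to 968) and 965 with the 4 arrays alone. The cause was not tested. Arrays were paired by state or age, since the labels carry no replicate numbers.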

Other observations

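Several pathway genes outside the interferon-induced regulators had their largest age difference in quiescent cells. They were chosen after their values were seen, each difference is 1 array against 1, and the pattern was not tested. Over all genes too, signal at least 2-fold lower in old cells was most frequent in quiescent samples. The share was 2.98% there, 1.79% with vehicle and 1.96% with PRI-724. The standard deviation of the differences over all genes was 0.58, 0.43 and 0.58. Old minus young in quiescent, vehicle and PRI-724 samples was -2.33, -1.07 and 0.52 for Tlr3, -1.79, -0.58 and -0.64 for Jak2, which carries interferon gamma signals, and -1.47, -0.58 and -0.39 for Myd88. It was -1.24, -0.47 and 0.05 for Irf4, -1.21, -0.62 and -0.44 for Stat3, and -0.93, -0.03 and 0.32 for Irf2, a repressor of IRF1 targets. Mavs, the adaptor of the cytosolic RNA sensors, went the other way in all 3 states, at 0.83, 0.48 and 1.01 (mean 0.78 ± 0.23, SE, n = 3 pairs; limma adjusted p = 0.241).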
